A study of Mus musculus with 4 samples.

Results

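The 10 genes described belong to the cyclic AMP (cAMP) and protein kinase A (PKA) system that holds mouse oocytes in meiotic arrest, and were measured in germinal vesicle (GV) oocytes with a knockdown of Ell3, which encodes an elongation factor of RNA polymerase II. They were taken by symbol as Gpr3, Gpr12, Adcy3, Adcy9, Pde3a, Prkaca, Prkacb, Prkar1a, Prkar2a and Prkar2b, and all 10 were among the 53677 symbols counted. The set was drawn up with the rise of Prkaca already known. There were 2 groups of GV oocytes, Ell3 KD and Ctrl, with 2 libraries each. Every library held polyadenylated RNA of 5 oocytes from females primed with 7.5 IU of PMSG, which stimulates follicle growth, 48 h before collection. The sources used here give no strain, no age, no method of knockdown or of its control, and no word on whether the libraries stem from different animals. The p-values therefore rest on differences between these libraries alone, and such differences may be technical. The submitters' stated purpose was to look at transcription as a possible route to effects on meiosis.

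An oocyte stays arrested in prophase while its cAMP is high. GPR3, and in rat oocytes its relative GPR12, are receptors active without an added ligand that work through the stimulatory G protein on adenylyl cyclase, which makes cAMP. The phosphodiesterase PDE3A breaks cAMP down and is itself held back by cyclic GMP that enters from the surrounding granulosa cells through gap junctions. Cyclic AMP binds the regulatory subunits of PKA and frees the catalytic subunits, whose activity favours WEE2 over CDC25B and so keeps CDK1 with cyclin B inactive.

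Library totals were 89632815 and 65722415 counts in Ell3 KD and 45131278 and 48669267 in Ctrl, so the groups did not overlap in depth. Ell3 itself had 255 and 181 counts in the Ell3 KD libraries, against 371 and 483 in the shallower Ctrl libraries (log2 fold change -1.66 ± 0.14 SE, edgeR adjusted p = 6.04e-10). Exons of Serinc4 on the same strand cover 65.6% of its exon length, and how reads in such overlaps were counted is not given in the sources used here. Serinc4 itself had 11 and 11 counts in Ell3 KD and 8 and 5 in Ctrl. All 10 oocyte markers examined were detected in every library. Their summed level was 21730 and 21640 CPM in Ell3 KD and 23310 and 22710 CPM in Ctrl, where CPM are counts scaled to a library total of 1e+06 after TMM. At an edgeR adjusted p under 0.05, 1 oocyte marker was higher in Ell3 KD (Oosp1) and 4 were lower (Gdf9, Zp1, Nobox and Nlrp5). That is 50% called, against 52.5% of all genes at 5 CPM or more, a class that holds all 10. The 7 tested of 12 granulosa and cumulus markers included 1 that was higher in Ell3 KD (Inha) and 1 that was lower (Nr5a2). These are 28.6% of the markers tested, against 42.9% of all genes tested, at an edgeR adjusted p under 0.05. The 12 together summed to 46.4 and 48.4 CPM in Ell3 KD and 52.0 and 50.2 CPM in Ctrl. Most of this sum came from Nr5a2 (mean 22.4 CPM in Ell3 KD and 26.4 CPM in Ctrl) and Cyp19a1 (17.1 and 18.0 CPM). It therefore says little about the other markers. Single markers went both ways. Foxl2 had 4 and 3 counts, Amh 9 and 5, and Amhr2 8 and 3 in Ell3 KD, and all of these were at 0 in Ctrl. Setting Ctrl at 3 counts over the group gives ratios of 1.45, 2.89 and 2.27. These leave out the counting error of so few Ell3 KD reads, and none of the 3 genes passed the filter for testing. Fshr had 0.598 and 0.449 CPM in Ell3 KD and 0.897 and 1.01 CPM in Ctrl and was not called (log2 fold change -0.85, edgeR adjusted p = 0.0630), and Has2 had 2 and 2 counts in Ell3 KD and 7 and 3 in Ctrl. Markers of theca and stroma summed to 1.72 and 1.55 CPM in Ell3 KD and 2.56 and 2.53 CPM in Ctrl. Markers of blood summed to 1.43 and 1.25 CPM in Ell3 KD and 2.76 and 3.34 CPM in Ctrl, with the globin genes at 0 throughout. The 2 blood markers tested, Alas2 and Cd68, were both lower (edgeR adjusted p = 0.0203 and 2.18e-04), where 21.8% of all genes tested were lower. What part RNA of other cells has in the values below was not tested. In such bulk samples fewer cells of a type and less RNA per cell cannot be told apart.

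Of the 10 genes, all of which passed the low-count filter, 1 was called higher in Ell3 KD and 4 were called lower at an edgeR adjusted p under 0.05. Among all 17879 genes tested, 21.1% were called higher and 21.8% lower, 42.9% in either direction, so that 5 of 10 is close to the background. The median log2 fold change of the 10 was -0.115, against -0.00245 over all genes tested. The groups did not overlap in CPM for 8 of the 10, and for 70.7% of all genes tested. DESeq2 called 2 of the 10, against 25.2% of its genes, and edgeR with an assumed coefficient of variation of 0.2 called 2, against 11.0%. Prkaca was 2.07-fold higher, the scarce Gpr12 was 2.04-fold lower, Gpr3 fell by 8.39%, Pde3a fell by 7.86% and Prkar1a fell by 7.42%.

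**Figure D1:**
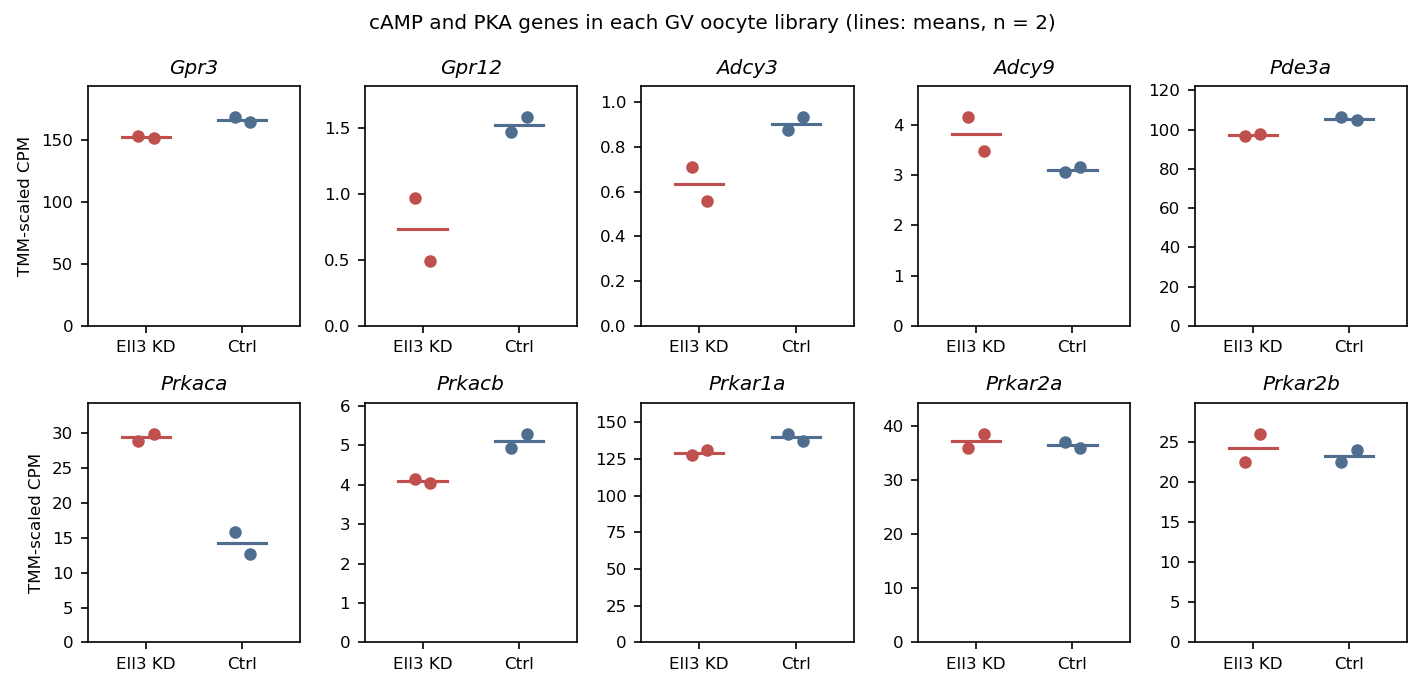
TMM-scaled CPM (vertical axis) of the 10 genes in each library, with Ell3 KD on the left and Ctrl on the right of each panel. Points are libraries and lines are means of 2. Prkaca stands at 28.9 and 29.9 CPM in Ell3 KD libraries, against 15.8 and 12.7 CPM in Ctrl, and only Prkar2a and Prkar2b overlap between the groups.

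The receptor gene Gpr3 was the most abundant of the 10 and was slightly lower in Ell3 KD. It had 153.3 and 151.5 CPM in Ell3 KD and 168.5 and 164.3 CPM in Ctrl. The groups did not overlap, and the log2 fold change was -0.13 with an SE of 0.04 (edgeR adjusted p = 0.00560). Without Ell3 KD replicate 2 it was not called (edgeR adjusted p = 0.0718), nor with the trend on length and GC content of transcripts removed (log2 fold change -0.07, edgeR adjusted p = 0.0682). Exons of Cd164l2 on the opposite strand cover 7.46% of its exon length, and Cd164l2 lay at 641.0 CPM in Ell3 KD and 602.8 CPM in Ctrl. How the counting treated strand is not given in the sources used here.

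Gpr12, the related receptor gene, was scarce. Its counts were 86 and 32 in Ell3 KD and 67 and 78 in Ctrl, or 0.971 and 0.495 CPM in Ell3 KD libraries, against 1.47 and 1.58 CPM in Ctrl. Both Ell3 KD libraries were below Ctrl, but they also differed from each other. The log2 fold change was -1.03 with an SE of 0.32 (edgeR adjusted p = 0.0111). It rested on the second Ell3 KD library, without which it was -0.65 and not called (edgeR adjusted p = 0.169). Without Ell3 KD replicate 1 it was -1.61 (edgeR adjusted p = 0.00143), and DESeq2 did not call it (adjusted p = 0.0663). Per kb of exon, Gpr3 stood 191 times above Gpr12 in Ell3 KD and 100 times in Ctrl. Of the RNA of Gpr3, Gpr12 and their relative Gpr6 per kb, Gpr3 made up 99.5% ± 0.2 in Ell3 KD and 99.0% ± 0.1 in Ctrl (SD, n = 2 each). Gpr6 had 2 counts in 1 Ctrl library and 0 in the others.

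Of the adenylyl cyclase genes, Adcy3, known from rodent oocytes, was barely detected. It had 0.711 and 0.557 CPM in Ell3 KD and 0.875 and 0.932 CPM in Ctrl. The values did not overlap, yet the log2 fold change of -0.50 did not pass the test (95% interval -1.23 to 0.23, edgeR adjusted p = 0.269). Cenpo on the opposite strand covers 22.1% of the Adcy3 exons and had 140.4 CPM in Ell3 KD and 131.2 CPM in Ctrl. The part of such reads in the Adcy3 count was not tested. Adcy9 had 4.15 and 3.48 CPM in Ell3 KD and 3.06 and 3.16 CPM in Ctrl, with a log2 fold change of 0.30 that was not called (95% interval -0.04 to 0.64, edgeR adjusted p = 0.151). With the trend on length and GC content removed it was called higher (log2 fold change 0.41, edgeR adjusted p = 0.0478).

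Neither gene led its family. Per kb of exon, Adcy5 was the highest of the 10 cyclase genes listed, at 2.51 CPM per kb in Ell3 KD and 2.64 CPM per kb in Ctrl, and Adcy8 came next, at 1.08 CPM per kb in Ell3 KD and 1.35 CPM per kb in Ctrl. Adcy3 and Adcy9 together held 13.5% ± 1.5 of cyclase RNA per kb in Ell3 KD and 10.7% ± 0.4 in Ctrl (SD, n = 2 each; exact two-sided permutation p = 0.333). With 2 libraries a group this test cannot give a p below 0.333. Of the 6 other cyclase genes tested, 0 were called higher and 2 lower (0 higher also at an unadjusted edgeR p under 0.05, in DESeq2 and in limma-voom). That is 33.3% called, against 42.9% of all genes tested. Adcy2 fell by 0.69 ± 0.17 in log2 terms (edgeR adjusted p = 0.00202) and Adcy8 by 0.32 ± 0.10 (edgeR adjusted p = 0.0117). The call of Adcy8 was lost in 5 of the 13 alternatives. These included DESeq2 (adjusted p = 0.0812) and removal of the length and GC trend (edgeR adjusted p = 0.0588). Its log2 fold change was -0.25 without Ell3 KD replicate 1 and -0.29 without Ctrl replicate 2. With the assumed coefficient of variation of 0.2 neither gene was called (edgeR adjusted p = 0.153 for Adcy2 and 0.726 for Adcy8).

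Pde3a, whose loss in mice leaves oocytes in arrest, was abundant and slightly lower in Ell3 KD. It had 96.6 and 97.9 CPM in Ell3 KD and 106.3 and 104.8 CPM in Ctrl. The groups did not overlap, and the log2 fold change was -0.12 with an SE of 0.04 (edgeR adjusted p = 0.0174). The call was lost without Ell3 KD replicate 1 (edgeR adjusted p = 0.151), without Ell3 KD replicate 2 (0.0813), without Ctrl replicate 1 (0.0619) and in DESeq2 (adjusted p = 0.0642). Per kb of exon Pde3a gave 32.1% ± 0.2 of the RNA of 16 cAMP phosphodiesterase genes in Ell3 KD and 33.0% ± 0.3 in Ctrl (SD, n = 2 each; exact permutation p = 0.333).

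Of 12 other cAMP phosphodiesterase genes tested, 2 were higher in Ell3 KD and 4 lower, or 50% called, against 42.9% of all genes tested. DESeq2 called 3 of this list, 1 of them higher, against 25.2% of its genes. Pde8a rose by 0.52 ± 0.10 in log2 terms, to 11.3 CPM in Ell3 KD libraries, against 7.90 CPM in Ctrl (edgeR adjusted p = 1.77e-04). Pde10a fell by 0.85 ± 0.14 (edgeR adjusted p = 1.66e-05), and Pde1b, the next most abundant after Pde3a per kb, fell by 0.37 ± 0.06 (edgeR adjusted p = 2.34e-05). Pde3b, the closest relative of Pde3a, had 26.7 CPM in Ell3 KD and 23.2 CPM in Ctrl (log2 fold change 0.20, edgeR adjusted p = 0.0171). The call of Pde3b was lost in 5 of the 13 alternatives, among them those without Ell3 KD replicate 2 and without Ctrl replicate 1.

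Prkaca, which encodes the alpha catalytic subunit of PKA, was the member that rose. Its counts were 2557 and 1932 in Ell3 KD and 722 and 626 in Ctrl, or 28.9 and 29.9 CPM in Ell3 KD libraries, against 15.8 and 12.7 CPM in Ctrl. Both Ell3 KD libraries lay well above Ctrl, and the Ctrl libraries differed more from each other than the Ell3 KD libraries did. The log2 fold change was 1.05 ± 0.08 (SE; 95% interval 0.88 to 1.21, edgeR adjusted p = 1.36e-10), a 2.07-fold rise. Among the 9704 genes with a mean of at least 5 CPM it was in place 30 from the top by log2 fold change, and 31 genes of that class (0.319%) were called higher by at least 2-fold. Since the rise was known when the set was drawn up, its p-value and place are description and no independent support. Leaving out 1 library gave log2 fold changes between 0.89 (without Ctrl replicate 2) and 1.21 (without Ctrl replicate 1). At equal depth, with every library thinned to the total of the shallowest, it was 1.03.

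Prkaca lies on chromosome 8 from 83972993 to 83996443 on the plus strand of GRCm38, and no exon of another annotated gene overlaps its exons. RefSeq gives it a pair of start sites, and counts per gene do not tell transcripts of one from those of the other. The 250 bases before each start site (RefSeq, GRCm38.p6) are shown because the measured rise is a sum over both. The window of Gpr3, the most abundant member, is given beside them. Bases are in lower case, with matches on either strand to the CRE half-site TGACG, the GC box GGGCGG, the CCAAT box CCAAT and the E-box CACGTG in capitals. The windows are Prkaca first start chr8:83972728-83972977 (plus strand), Prkaca second start chr8:83976633-83976882 (plus strand) and Gpr3 chr4:133212537-133212786 (minus strand).
Prkaca, first start: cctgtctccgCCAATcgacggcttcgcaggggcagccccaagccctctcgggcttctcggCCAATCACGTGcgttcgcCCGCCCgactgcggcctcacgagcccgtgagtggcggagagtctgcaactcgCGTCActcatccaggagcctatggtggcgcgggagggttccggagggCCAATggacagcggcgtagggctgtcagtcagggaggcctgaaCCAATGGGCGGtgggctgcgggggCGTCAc
Prkaca, second start: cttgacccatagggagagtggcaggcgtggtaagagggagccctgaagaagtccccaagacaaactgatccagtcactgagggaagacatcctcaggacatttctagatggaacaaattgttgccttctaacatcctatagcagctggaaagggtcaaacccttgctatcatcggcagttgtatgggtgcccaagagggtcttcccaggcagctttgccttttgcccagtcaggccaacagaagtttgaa
Gpr3: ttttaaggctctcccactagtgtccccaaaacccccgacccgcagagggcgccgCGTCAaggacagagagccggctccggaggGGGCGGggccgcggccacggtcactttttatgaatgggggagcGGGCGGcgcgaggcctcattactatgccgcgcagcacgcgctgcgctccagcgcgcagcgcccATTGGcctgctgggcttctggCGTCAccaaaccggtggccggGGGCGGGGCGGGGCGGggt
The first Prkaca window held 4 CCAAT boxes, 2 GC boxes, 2 CRE half-sites and 1 E-box, with 1 CCAAT box directly before the E-box, another directly before a GC box, and no overlaps. The second held none of these. The Gpr3 window held 5 GC boxes, of which the last 3 overlap in a row, 2 CRE half-sites and 1 CCAAT box. Of 32817 annotated windows of this length, 33.83% held a CCAAT box and 0.83% held at least 4. A GC box was in 32.72%, with at least 4 in 4.09%, a CRE half-site in 17.75% and an E-box in 6.02%. None of the 3 windows shown held the full site TGACGTCA, which is in 1.55% of all windows. A window of Prkar1a, not shown, did hold it. These are matches of letters and describe the windows only.

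Prkacb, the gene of the beta catalytic subunit, had 4.15 and 4.04 CPM in Ell3 KD and 4.92 and 5.29 CPM in Ctrl. Both Ell3 KD libraries were below Ctrl, but the log2 fold change of -0.32 ± 0.14 was not called (SE; 95% interval -0.61 to -0.02 without adjustment, edgeR adjusted p = 0.0740). Of the reads counted to this pair, Prkaca took 87.4% and 88.1% in Ell3 KD (95% Wilson intervals 86.2% to 88.6% and 86.7% to 89.4%) and 76.2% and 70.6% in Ctrl (73.4% to 78.8% and 67.5% to 73.5%). The intervals treat each read as independent and leave out variation between libraries. Amplified reads are not independent molecules, so the intervals are likely too narrow even for counting error. The coding sequences of the pair are alike, and how reads matching both were counted is not given in the sources used here.

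Among the regulatory subunit genes the changes were small. Prkar1a, which encodes the type I alpha subunit, had 127.7 and 130.9 CPM in Ell3 KD and 142.0 and 137.3 CPM in Ctrl. The groups did not overlap, and the log2 fold change was -0.11 with an SE of 0.04 (edgeR adjusted p = 0.0182). It was not called without Ell3 KD replicate 1 (edgeR adjusted p = 0.195), without Ell3 KD replicate 2 (0.0547), without Ctrl replicate 1 (0.108) or in DESeq2 (adjusted p = 0.0610).

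The type II subunit genes, whose proteins dock on A-kinase anchoring proteins, overlapped between the groups. Prkar2a had 35.8 and 38.5 CPM in Ell3 KD and 37.0 and 36.0 CPM in Ctrl (log2 fold change 0.03, 95% interval -0.09 to 0.14, edgeR adjusted p = 0.745). Prkar2b had 22.5 and 26.0 CPM in Ell3 KD and 22.5 and 24.0 CPM in Ctrl (log2 fold change 0.05, 95% interval -0.10 to 0.20, edgeR adjusted p = 0.583). For both, the interval leaves out a change of the size seen for Prkaca in either direction.

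**Figure D2:**
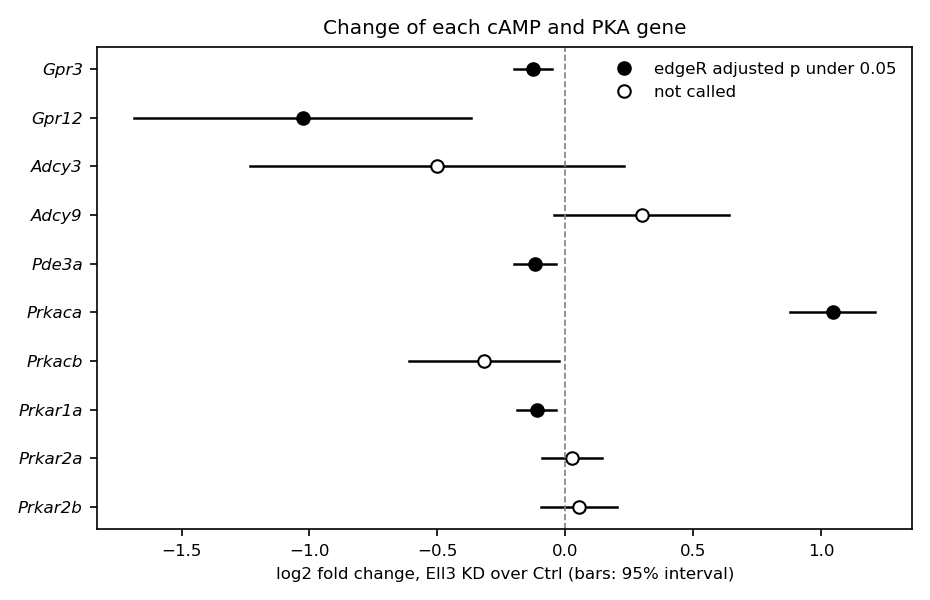
Log2 fold change of Ell3 KD over Ctrl (horizontal axis) for the 10 genes, with bars for unadjusted 95% intervals of the edgeR fit and filled points for genes called at an adjusted p under 0.05. Prkaca stands alone on the right at 1.05, the wide intervals are those of the scarce Gpr12 and Adcy3, and Gpr3, Pde3a and Prkar1a sit together between -0.13 and -0.11.

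Per kb of exon, catalytic subunit RNA was higher relative to regulatory subunit RNA in both Ell3 KD libraries than in either Ctrl library. The ratio of Prkaca plus Prkacb to the 3 regulatory genes was 0.292 and 0.287 in Ell3 KD, against 0.154 and 0.130 in Ctrl. It was 2.04 times as high in Ell3 KD, and the groups did not overlap (exact two-sided permutation p = 0.333, the smallest this test can give). In CPM, 70.7% of all genes tested did not overlap either. With most of the catalytic RNA from Prkaca, the ratio largely restates the rise of that gene, which was known beforehand. Prkaca made up 96.1% and 96.3% of catalytic subunit RNA per kb in Ell3 KD and 91.9% and 89.4% in Ctrl. Prkar1a made up 71.5% and 69.7% of regulatory subunit RNA per kb in Ell3 KD and 73.3% and 72.2% in Ctrl. These ratios are taken within a library and do not depend on how libraries are scaled to each other. They are of RNA, and protein was not measured.

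**Figure D3:**
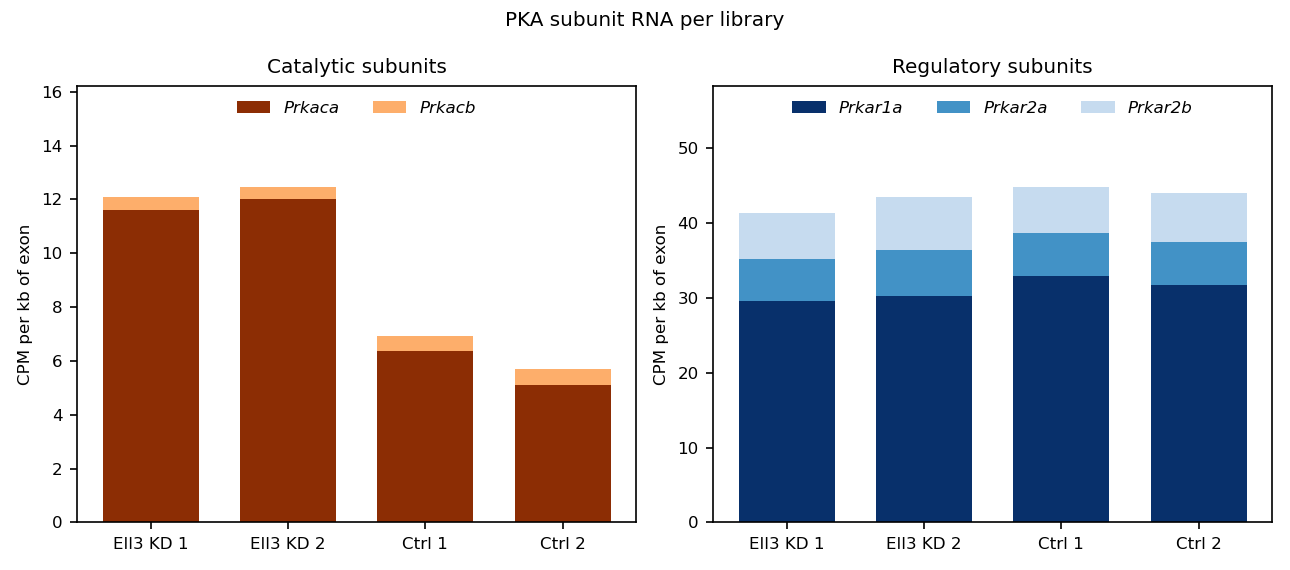
CPM per kb of exon (vertical axes, which differ between panels) of PKA catalytic subunit genes (left) and regulatory subunit genes (right), stacked for each library. The catalytic stack is about 2.04 times as high relative to the regulatory stack in the Ell3 KD libraries as in Ctrl, and nearly all of it is Prkaca.

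By level per kb, the order in Ell3 KD was Gpr3 (55.8 CPM per kb), Prkar1a (29.9), Prkaca (11.8), Pde3a (7.64), Prkar2b (6.64), Prkar2a (5.83), Adcy9 (0.734), Prkacb (0.467), Gpr12 (0.292) and Adcy3 (0.102). No neighbours in that order overlapped over the libraries. In Ctrl Gpr3 (60.9), Prkar1a (32.3) and Pde3a (8.29) led. Prkar2b (6.37), Prkaca (5.72) and Prkar2a (5.72) followed, with Prkaca overlapping both of these neighbours in the range of its libraries. Next came Gpr12 (0.606), Adcy9 (0.599) and Prkacb (0.582), each overlapping its neighbour among them, and Adcy3 (0.145) was last. In both groups the order holds for the exon union as length, and near neighbours may change places with another. The exon union and longest transcript are 8772 and 4347 bp for Prkacb, and 6378 and 4965 bp for Prkar2a.

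The pathway around the 10 genes was listed by role, and 83 of the 101 further genes in the files were tested. Of these, 24 were higher in Ell3 KD and 21 lower, 54.2% in all, against 42.9% of all genes tested and 52.5% of those at 5 CPM or more. Their median log2 fold change was 0.0164. With the trend on length and GC content removed, the split was 28 higher and 14 lower.

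Ell3 KD oocytes had 8 higher and 2 lower among the 16 G protein subunit genes that entered the test, with a median log2 fold change of 0.169, where 21.1% of all genes tested were higher and 21.8% lower. Of 4 genes for RIC8 chaperones and RGS regulators of G proteins, 2 were higher and 1 lower. Gnas, the gene of the stimulatory alpha subunit through which GPR3 works, rose by 0.34 ± 0.05 in log2 terms, to 67.9 CPM in Ell3 KD libraries, against 53.8 CPM in Ctrl (edgeR adjusted p = 3.48e-06). Gm20721 and Nespas on the opposite strand cover 13.1% and 8.83% of its exon length. Genes of inhibitory alpha subunits went both ways. Gnai1 and Gnai2 rose (log2 fold change 0.20 and 0.14, edgeR adjusted p = 0.00365 and 0.00356). Gnai3 and Gnaz fell (-0.18 and -0.21, edgeR adjusted p = 8.43e-04 and 0.0287), and Gnao1 was not called. The gamma subunit genes Gng5 and Gng3 rose by 0.47 ± 0.05 and 0.38 ± 0.04, and the beta subunit gene Gnb1 by 0.24 ± 0.05 (edgeR adjusted p = 1.40e-04 for Gnb1, the largest of these 3). Bscl2 on the opposite strand covers 24.2% of the Gng3 exons and had 579.7 CPM in Ell3 KD and 578.9 CPM in Ctrl. With the assumed coefficient of variation of 0.2, Gnas, Gng5, Gng3 and Gnb1 were not called (edgeR adjusted p = 0.683, 0.432, 0.599 and 0.836). Gnb4, at 287.8 CPM in Ell3 KD and 292.6 CPM in Ctrl, was not called (edgeR adjusted p = 0.608).

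Genes that bear on the supply of cyclic GMP held 2 that were higher and 2 that were lower among 9 tested. That is 44.4% called, against 42.9% of all genes tested. Gja4, the connexin gene of the gap junctions on the oocyte side, had 561.4 CPM in Ell3 KD and 544.1 CPM in Ctrl and was not called (edgeR adjusted p = 0.270), although it was without Ctrl replicate 1 (adjusted p = 0.0247). Gja1, the connexin gene used between granulosa cells, rose by 1.17 ± 0.16 in log2 terms, with 5.38 and 5.80 CPM in Ell3 KD libraries, against 2.58 and 2.39 CPM in Ctrl (edgeR adjusted p = 1.21e-06). Npr2, the guanylyl cyclase receptor gene of granulosa cells, had 28 and 15 counts in Ell3 KD and none in Ctrl. Setting Ctrl at 3 counts over the group gives a ratio of 8.89, without the counting error of the Ell3 KD reads. Such a gene passes the filter through Ell3 KD alone. Npr1, another guanylyl cyclase receptor gene, was scarce and lower, with 5 and 1 counts in Ell3 KD and 21 and 9 in Ctrl (edgeR adjusted p = 0.00405). It passed the filter through Ctrl alone. It was not called without Ell3 KD replicate 2 (edgeR adjusted p = 0.115) or without Ctrl replicate 1 (edgeR adjusted p = 0.200). Pde9a, the gene of a phosphodiesterase that breaks down cyclic GMP, fell by 0.74 ± 0.15 in log2 terms, with 3.63 and 3.93 CPM in Ell3 KD and 7.07 and 5.59 CPM in Ctrl (edgeR adjusted p = 1.93e-04). Among the granulosa markers Inha was higher, with 2.18 and 2.47 CPM in Ell3 KD libraries, against 0.941 and 1.13 CPM in Ctrl (edgeR adjusted p = 3.63e-04), and Nr5a2 was lower, with 22.3 and 22.5 CPM in Ell3 KD and 26.6 and 26.2 CPM in Ctrl (log2 fold change -0.24, edgeR adjusted p = 0.00391). The other 5 markers tested, Fshr, Fst, Inhba, Cyp19a1 and Kitl, were not called.

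Of the 3 tested genes for other PKA subunits, the related kinase PRKX and the PKI inhibitors, which bind free catalytic subunits, 0 were called by edgeR, 0 by DESeq2 and 0 by limma-voom, and 0 had an unadjusted edgeR p under 0.05. Pkig, the most abundant of them, had 89.6 and 86.3 CPM in Ell3 KD and 87.8 and 86.2 CPM in Ctrl (log2 fold change 0.02, 95% interval -0.07 to 0.10). Of 13 genes for A-kinase anchoring proteins tested, 3 were higher and 4 lower, or 53.8% called, against 42.9% of all genes tested. DESeq2 called 4 of this list, 1 of them higher, against 25.2% of its genes. Akap4, counted among the 3 higher with edgeR, had 41 and 15 counts in Ell3 KD and 5 and 4 in Ctrl. It passed the filter through Ell3 KD alone. Akap7 rose by 0.42 ± 0.05 in log2 terms (48.8 CPM in Ell3 KD, 36.4 CPM in Ctrl, edgeR adjusted p = 4.76e-07), and Akap8 fell by 0.43 ± 0.10 (edgeR adjusted p = 9.52e-04). Akap12, the most abundant, was not called (edgeR adjusted p = 0.267). Of 10 genes for other cAMP effectors and CREB factors, 3 were higher and 3 lower, or 60% called, against the same 42.9%. This share depended on the tool, since limma-voom called 5 of the 10 and DESeq2 only 1, against 25.2% of its genes. The largest change was a fall of Rapgef2 by 0.70 ± 0.07 (edgeR adjusted p = 3.28e-08).

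Of 10 genes of the CDK1 switch downstream of PKA, 4 were higher and 3 lower. That is 70% called, against 52.5% of all genes at 5 CPM or more, a class that holds all 10. The phosphatase gene Cdc25b, a PKA substrate in the oocyte, fell by 0.32 ± 0.06 in log2 terms (23.4 CPM in Ell3 KD, 29.2 CPM in Ctrl, edgeR adjusted p = 2.00e-04), and Cdc25a rose by 0.39 ± 0.05 (edgeR adjusted p = 1.30e-06). Wee2, the oocyte kinase gene under PKA, had 437.4 and 450.6 CPM in Ell3 KD and 424.7 and 429.2 CPM in Ctrl and was not called (log2 fold change 0.06, edgeR adjusted p = 0.142). The much scarcer Wee1 fell by 0.97 ± 0.08 (12.7 CPM in Ell3 KD, 24.8 CPM in Ctrl, edgeR adjusted p = 4.56e-10). Pkmyt1, the gene of another inhibitory CDK1 kinase, fell by 0.28 ± 0.05 (61.7 CPM in Ell3 KD, 75.0 CPM in Ctrl, edgeR adjusted p = 1.77e-04).

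**Figure D4:**
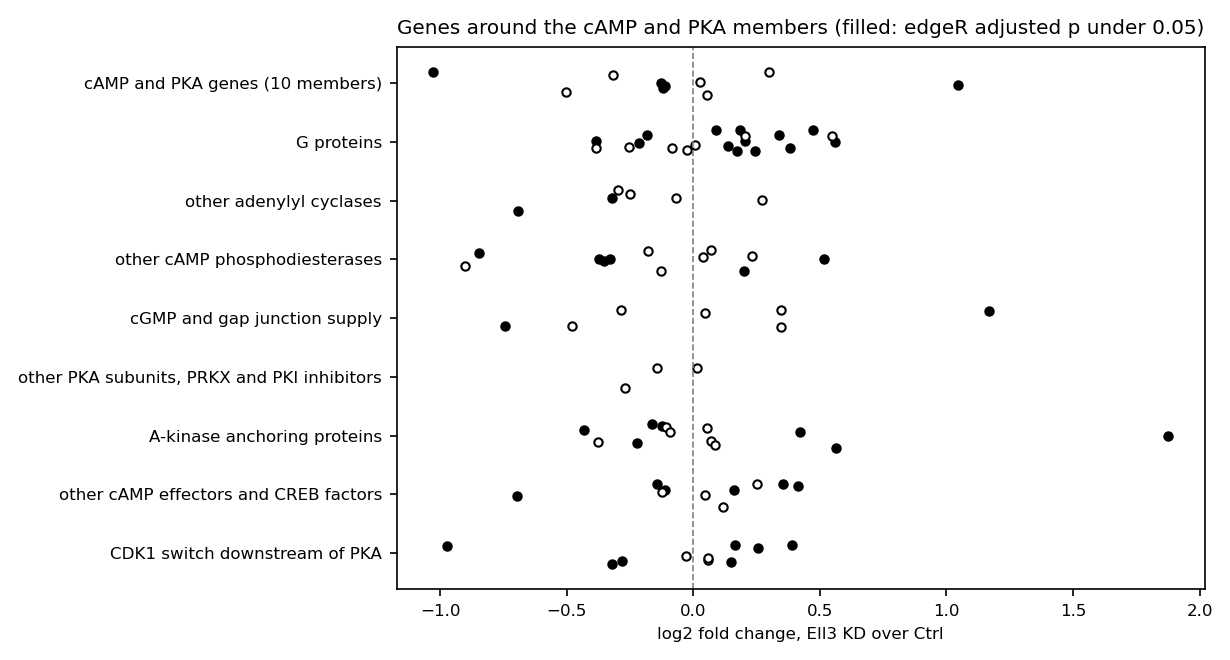
Log2 fold change of Ell3 KD over Ctrl (horizontal axis) of the 10 genes (top row) and of tested genes in each role list (rows), with points scattered vertically for legibility and filled where the adjusted p was under 0.05. Npr2 and Npr1, with almost no reads in 1 group, are not drawn. Among the 10 genes Prkaca stands at 1.05, and in the lists the points far to the right are Gja1 at 1.17 and the scarce Akap4 at 1.87. Akap4 passed the low-count filter through Ell3 KD alone.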

How the data were processed

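The deposited values are raw counts per gene symbol, 1 file for each of 4 Smart-seq2 libraries (16 amplification cycles and 150-bp paired reads, per the labels' protocols). The build was mm10 and the tools were HISAT2 2.2.1.0, featureCounts and FastQC 0.11.5, per the submitters' processing notes. The annotation, strand setting and treatment of multi-mapping reads are not given in the sources used here. Groups came from the sample titles. Within groups, chi-square per degree of freedom was 3.60 in Ell3 KD and 3.45 in Ctrl, above counting error.

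Counts were fitted across 17879 genes that passed filterByExpr in R 4.3.3 with edgeR 4.0.16 (TMM, glmQLFit, glmQLFTest, two-sided), with no covariate and Benjamini-Hochberg adjustment over all of them. The SE is the log2 fold change over the root of its F statistic. CPM use TMM-scaled totals, and CPM per kb use the union of exons in GENCODE M21 (GRCm38, the assembly of mm10). A count of 0 allows up to 0.0657 CPM in the shallowest library, taking 3 counts as the limit. TMM makes each change relative to the bulk of genes, and total mRNA per oocyte was not measured. Alternatives were DESeq2 1.42.0, limma-voom (limma 3.58.1), RLE factors, other filters, thinning to equal depth, an assumed coefficient of variation of 0.2, removal of length and GC trends (mgcv), a replicate block and leaving out each library. On simulated counts over 17390 genes, edgeR called 64% of 50 genes changed 1.2-fold and 86% of 50 changed 2-fold. Far fewer genes were changed there than the 42.9% called in the data. The adjustment then differs, so these rates need not hold for the data. The 10 genes and the lists were chosen with earlier results of these data known. The text describes the 10 genes, Ell3 and a part of those that a rule took from each list (the 2 highest by mean CPM and up to 4 called with the smallest p). Wee2, Gpr6, Akap4, Gnai1, Gnai2, Gnai3, Gnao1, Gnaz, single cell type markers and overlapping genes were named after their values were seen.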

Additional observations from a re-analysis of the deposited data

How the results depend on the processing

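Prkaca and Ell3 kept their direction and their call under all 13 alternatives, and so did the direction of the subunit ratios under each alternative gene length and each library left out. The Prkaca log2 fold change lay between 0.89 and 1.21. The number of members called, 5 in the main test, was 2 with DESeq2 and 2 with an assumed coefficient of variation of 0.2, and between 1 and 5 when a library was left out. Members called lower, 4 in the main test, were 1, 1 and between 0 and 4 under the same settings. Members called higher were 2 with the trend on length and GC content removed, where Adcy9 joined Prkaca, and 1 in each other setting. The 45 other pathway genes called became 29 with DESeq2 (15 higher) and 6 with the assumed coefficient of variation (3 higher and 3 lower), and between 32 and 40 when a library was left out. The calls of Pde3a and Prkar1a were lost with DESeq2, with the assumed coefficient of variation and without any one of 3 libraries. That of Gpr3 held with edgeR, DESeq2 and limma-voom, and was lost with the assumed coefficient of variation, with the length and GC trend removed and without Ell3 KD replicate 2. For Gpr12 and Adcy3 the low counts limit the precision. With the replicate number as a block, 5 members and 48 other pathway genes were called. The sources used here do not say whether same-numbered libraries belong together. The replicate 1 minus 2 differences of the groups had a correlation over 9704 genes of 0.0548. With 1 such difference per group, that value cannot settle the question. The causes of these shifts were not tested.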
